A study of Mus musculus with 12 samples.

Results

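Small leucine-rich and large matrix proteoglycans were examined in RNA-Seq of hernia-associated fibroblasts (HAFs), primary fibroblasts grown from the lower abdominal muscle (LAM) of male Aromhum mice. The 9 genes Dcn, Lum, Bgn, Fmod, Ogn, Prelp, Aspn, Vcan and Hspg2 were chosen by name, and all 9 were among the 13233 genes with deposited values. Aromhum mice carry human aromatase, the enzyme that makes estradiol (E2) from androgens, on a bacterial artificial chromosome with several of its own promoters, in the FVB/N strain. All 12 samples came from this genotype, so the control samples carry the transgene too, and no wild-type cells were compared. The groups of 3 samples received the solvents ethanol and DMSO (vehicle), E2 at 10 nM (E2), fulvestrant at 100 nM (fulvestrant), or both agents at these doses (E2 plus fulvestrant), each for a treatment time of 48 h. Fulvestrant is an estrogen receptor antagonist that also lowers the receptor protein. The cells had been passaged once, starved of serum and kept in low charcoal-stripped serum, and the age of the mice is not given in the sources used here. The labels do not say whether replicates came from separate animals or cultures. The p-values measure the spread left between these samples once differences between replicate numbers are removed, which may be technical.

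Proteoglycans are proteins that carry sulfated sugar chains. The small leucine-rich members bind collagen fibrils and set their diameter and spacing, and several also bind TGF-beta. Versican (Vcan) is a large chondroitin sulfate proteoglycan that binds hyaluronan in provisional matrix, and perlecan (Hspg2) is a heparan sulfate proteoglycan of basement membranes and the pericellular matrix. In tendon and in the connective tissue of muscle these proteins are made mainly by fibroblast-like cells.

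The deposited values are normalized counts, that is read counts divided by 1 factor per sample. Reads on the listed genes, inferred from the steps between values, ranged from 18827792 to 44040507 per sample, and every gene had at least 10 such reads in every sample. All 9 fibroblast markers checked, Pdgfra and Col1a1 among them, were listed, whereas 0 of 9 skeletal muscle, 0 of 5 adipocyte and 0 of 6 mesothelial and epithelial markers were. Their summed normalized count was 671305 to 753968 in replicate 1 and 471888 to 653934 in replicates 2 and 3, but single markers went both ways. The ratio of replicate 1 to the others was 0.12 for Thy1 and 0.34 for S100a4, against 1.85 for Col1a1, 1.95 for Col1a2 and 1.53 for Fn1. With fulvestrant against vehicle, Col1a1 (-0.43, limma adjusted p = 0.0119) and Col3a1 (-0.49, limma adjusted p = 0.017) were called lower and S100a4 higher (0.72, limma adjusted p = 0.035). The S100a4 pairs differed in sign, at -0.17, 1.06 and 1.27 in replicates 1, 2 and 3, and without replicate 1 the difference was 1.17. Col1a1 (-0.67), Col1a2 (-0.53) and Col3a1 (-0.55) were called lower, and S100a4 (0.29) was not called, with E2 plus fulvestrant against E2. Markers of endothelial cells (1 of 6 listed, summed normalized count 58.5 to 277), leukocytes (2 of 6, 90.7 to 389), pericytes and smooth muscle (2 of 6, 81.1 to 314) and Schwann cells (3 of 5, 149 to 299) had sums of at most 389 in any sample. Among them, Notch3, a pericyte marker, was called lower with fulvestrant against vehicle (-0.85, limma adjusted p = 0.0125) and S100b, a Schwann cell marker, with E2 plus fulvestrant against E2 (-0.91, limma adjusted p = 0.0228). The ratio of replicate 1 to the others was 3.14 for Lyz2, a macrophage marker, and 0.32 for Tek, an endothelial one. The part of these cells in the results was not tested. Of the receptor genes, Esr1 was lower with fulvestrant than with vehicle (log2 difference -1.46, limma adjusted p = 0.000993). Pgr, a classical estrogen target, was higher with E2 than with vehicle (1.88, limma adjusted p = 0.0343), a call lost in 11 of 15 fits that left out a sample or a replicate number, with differences of 1.52 to 2.16.

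Per kilobase of merged exon, the only scale on which levels were compared between genes, Ogn had the highest mean over the 12 samples, at 23846 normalized counts per kilobase. Prelp followed at 13869, Dcn at 12355 and Bgn at 11438. Aspn had 5485, Fmod 1802, Hspg2 1689, Lum 791 and Vcan 213. This order is a mean over unlike samples. Ogn was the highest of the 9 genes in the 4 samples of replicate 1 (40221 to 57356), and Dcn in the 8 samples of replicates 2 and 3 (12093 to 19836, against 9735 to 13617 for Ogn). The ranges over the 12 samples of all neighbours in the order overlapped. Within samples, Ogn was above Prelp, Hspg2 above Lum and Lum above Vcan in 12 of 12, whereas Prelp was above Dcn in 4 of 12 and Fmod above Hspg2 in 4 of 12, those of replicate 1. Together the 9 genes took 0.739% to 1.42% of all listed normalized counts.

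Replicate 1 stood apart from replicates 2 and 3 in all 4 groups. Replicate 1 had more Aspn (asporin) by a mean log2 difference of 3.07, more Fmod by 2.32, more Ogn by 2.14 and more Prelp by 1.3. It had less Dcn, with a log2 difference of -1.42, less Lum (-1.38) and less Vcan (-1.20), while Bgn (0.31) and Hspg2 (0.23) differed little. A gap of more than 1 on the log2 scale was thus seen in 7 of the 9 genes, against 10.3% of all genes, whose median size was 0.31. Replicates 2 and 3 of the same group differed by at most 0.38 in any of the 9 genes.

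**Figure D1:**
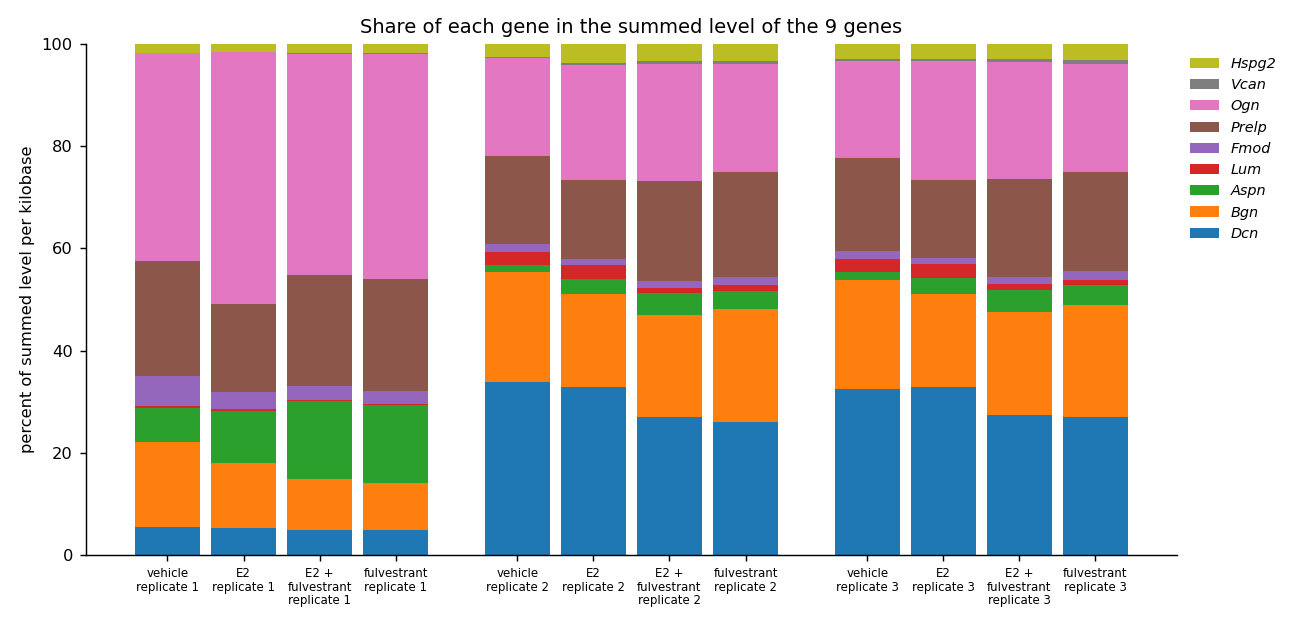
Share of each of the 9 genes in their summed level per kilobase of exon (percent, vertical axis), with 1 bar for each of the 12 samples, grouped by replicate number. Dcn makes up 4.88% to 5.57% in the replicate 1 samples and 25.9% to 33.8% in the others, and Ogn 40.6% to 49.2% against 19.0% to 23.3%.

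Replicate 1 also had more RNA of genes that mark tendon. Of 6 tendon and cartilage markers, 4 were listed, and their summed normalized count was 9343 to 14272 in replicate 1 against 3263 to 4593 in replicates 2 and 3. Tnmd (tenomodulin, a marker of mature tendon cells) had a mean of 1286 in replicate 1 and 26.1 in replicates 2 and 3, a ratio of 49.3. Scx, a tendon transcription factor, had a ratio of 6.15 and Mkx, another, of 4.25, whereas Sox9, the cartilage regulator, had 0.87. The cartilage genes Acan and Col2a1 were not listed. The summed level was also lower with fulvestrant, at 3303 to 9343 with E2 plus fulvestrant and 3263 to 9810 with fulvestrant, against 4535 to 14154 with vehicle and 4245 to 14272 with E2. Tnmd (log2 difference -0.93, limma adjusted p = 0.0216) and Mkx (-0.65, limma adjusted p = 0.0016) were called lower with fulvestrant than with vehicle. For Tnmd the pairs were -1.74, -0.32 and -0.72, and without replicate 1 the difference was -0.52 and was not called (limma adjusted p = 0.271). Both genes were also called lower with E2 plus fulvestrant against E2. Tnmd gave -1.38 (limma adjusted p = 0.0037), with pairs of -1.42, -1.54 and -1.18. Mkx gave -0.58 (limma adjusted p = 0.0037), with pairs of -0.51, -0.65 and -0.58. Each marker call given here and above was lost in 1 to 9 of the 15 fits that left out a sample or a replicate number. The part of such cells in the results below was not tested, and in bulk samples fewer cells of a type and less RNA per cell cannot be told apart.

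**Figure D2:**
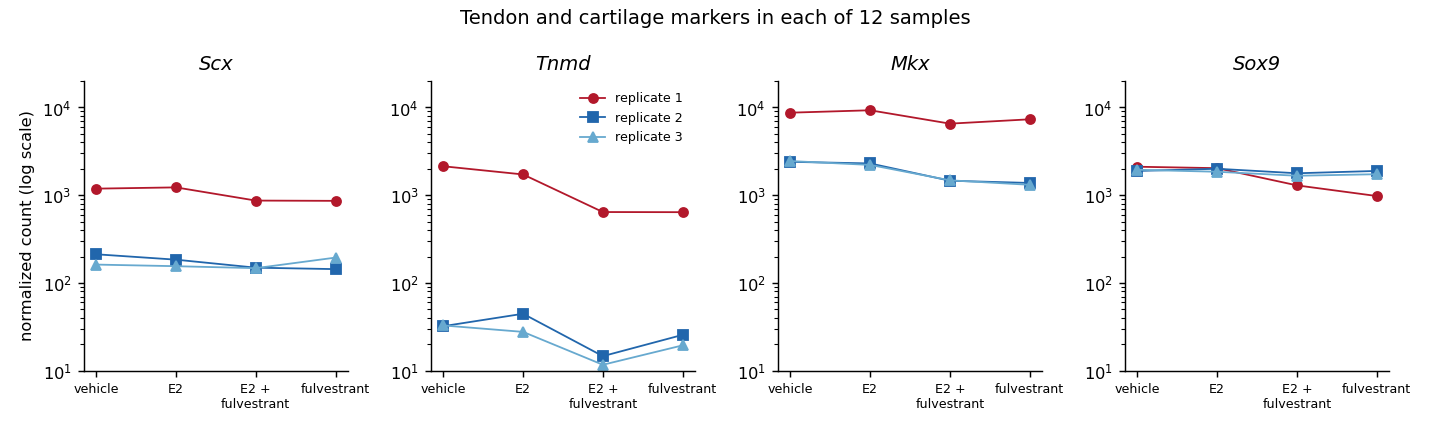
Normalized counts (log scale, vertical axis) of the tendon and cartilage markers Scx, Tnmd, Mkx and Sox9 in the 4 groups, with 1 line for each replicate number. Scx, Tnmd and Mkx lie higher in replicate 1 in all groups, and Tnmd and Mkx are lower in both groups with fulvestrant.

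Treatments were compared within replicate numbers. Log2(normalized count + 1) of all 12 samples was fitted with limma, with the replicate number as a block, and genes with a fold change over 1.2 and a p-value under 0.05 after Benjamini-Hochberg adjustment over all 13233 genes were called. With E2 against vehicle, 1 of the 9 genes, Aspn, was called higher, against 0.0756% of all genes, and 0 were called lower, against 0%, with 1340 genes at an unadjusted p under 0.05. With fulvestrant against vehicle, Aspn and Vcan were called higher (2 of 9, against 6.76% of all genes), and Lum and Fmod lower (2 of 9, against 5.69%). With E2 plus fulvestrant against E2, Aspn and Vcan were called higher (2 of 9, against 4.97%) and Lum lower (1 of 9, against 4.62%). With E2 plus fulvestrant against fulvestrant, limma called 0 of the 9 genes, against 0% of all genes, with 255 genes at an unadjusted p under 0.05. The interaction, whether the E2 difference changed with fulvestrant, also gave 0 of 9, against 0%, with 501 genes at an unadjusted p under 0.05. The median log2 difference of the 9 genes was 0.18 for E2 against vehicle, 0.03 for fulvestrant against vehicle and -0.22 for E2 plus fulvestrant against E2, and over all genes each of these medians was 0.01. The share of normalized counts on 12 mitochondrial genes moved with fulvestrant as well. It was 0.735% to 0.815% with fulvestrant against 0.632% to 0.655% with vehicle, and 0.696% to 0.928% with E2 plus fulvestrant against 0.554% to 0.706% with E2, higher in 3 of 3 pairs each time. Its part in the fulvestrant differences was not tested.

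All calls among the 9 genes depended on the replicate block. Without it, none was called in any of these comparisons, with standard errors of 0.543 to 1.29 for the 4 genes called with it. With 2-group fits that kept the block, Aspn was called in 3 comparisons, Lum in 2, Vcan in fulvestrant against vehicle and Fmod in E2 plus fulvestrant against E2. The numbers 2 and 3 were not told apart by the data, and a block that set only replicate 1 against the others gave the same calls and added Dcn in E2 plus fulvestrant against E2.

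**Figure D3:**
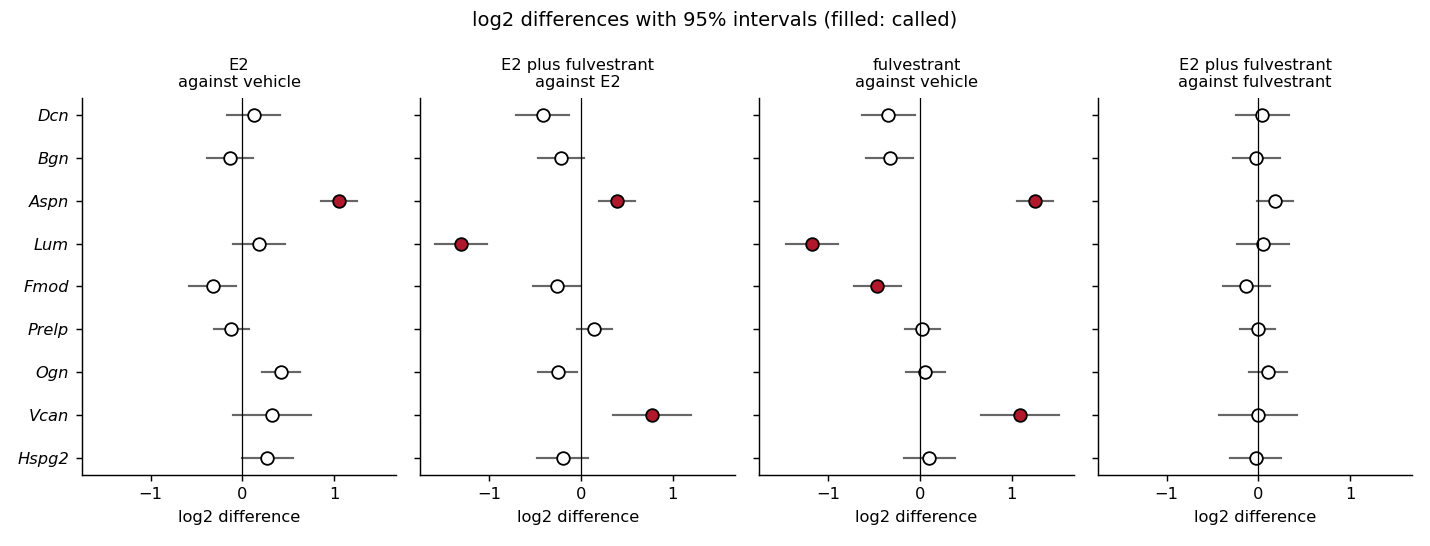
Log2 differences of the 9 genes (points) with 95% intervals (lines) in 4 comparisons from the limma fit with the replicate block, filled where called. Aspn is called in the first 3 panels, Lum and Vcan in the fulvestrant comparisons, Fmod in fulvestrant against vehicle, and no gene in the last panel.

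Asporin (Aspn), decorin (Dcn) and biglycan (Bgn) form the first class of small leucine-rich proteins. Asporin binds collagen and TGF-beta and, unlike the others, carries no sugar chain of the chondroitin or dermatan type. Its normalized count with vehicle was 15678 in replicate 1, 1801 in replicate 2 and 1783 in replicate 3. With E2 it was 27948, 4026 and 3968 in the same order. With E2 plus fulvestrant it was 40230, 4914 and 5124. With fulvestrant it was 41283, 4036 and 4142. Within every replicate number the vehicle sample was the lowest, although the groups overlapped because replicate 1 was far above the others. E2 raised Aspn by 1.05 on the log2 scale (standard error 0.089, limma adjusted p = 0.00222), a fold of 2.07, with 3 of 3 pairs higher. Fulvestrant against vehicle gave 1.26 (standard error 0.089, limma adjusted p = 2.03e-05), a fold of 2.39, with 3 of 3 pairs higher. With E2 plus fulvestrant against E2 the difference was 0.39 (limma adjusted p = 0.0167).

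E2 and fulvestrant thus each went with more Aspn than vehicle. E2 plus fulvestrant against fulvestrant gave 0.18 (95% interval -0.01 to 0.38), so the interaction was -0.86 (standard error 0.126), with a limma adjusted p of 0.237 over all genes. In replicate 1 that last difference was -0.04, and in replicates 2 and 3 it was 0.28 and 0.31. Without replicate 1 in any group, the interaction was -0.86 as well and passed the test (limma adjusted p = 0.00297), as it did without E2 replicate 1 (-0.98, limma adjusted p = 0.0289). Without replicate 1, Aspn changed by 1.16 with E2 (limma adjusted p = 1.24e-05), by 1.19 with fulvestrant (limma adjusted p = 7.55e-07) and by 0.33 with E2 plus fulvestrant against E2 (limma adjusted p = 0.00246). Without replicate 2, or without replicate 3, the E2 call and the call of E2 plus fulvestrant against E2 were lost, with differences of 0.98 to 1.17 and 0.28 to 0.46 over all samples and numbers left out. The call of the second was also lost if E2 replicate 1, or replicate 2 or 3 of E2 plus fulvestrant, was left out.

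The Aspn gene (ENSMUSG00000021388) lies on chromosome 13 of GRCm38, 49544443 to 49567565, on the plus strand. Promoter sequences are shown for the genes called in a comparison that have an entry in the RefSeq promoter table of GRCm38.p6, which holds 7 of the 9 genes. Each is the 250 bases before the annotated start, 5′ to 3′ on the gene's strand, in lower case, with matches to 6 motifs on either strand in capitals. The motifs were the estrogen response element GGTCANNNTGACC and the shorter site AGGTCA, which overlaps the element in part. The AP-1 site was searched as TGANTCA, the TATA box as TATAAA, the GC box as GGGCGG, and the last motif was CCAAT. The Aspn sequence is at chr13:49544193-49544442, plus strand.
Aspn: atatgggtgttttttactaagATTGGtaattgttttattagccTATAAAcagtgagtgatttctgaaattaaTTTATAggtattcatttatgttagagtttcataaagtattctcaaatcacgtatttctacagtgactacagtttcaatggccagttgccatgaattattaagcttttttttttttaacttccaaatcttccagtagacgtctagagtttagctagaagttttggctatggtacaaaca
It holds TATAAA on both strands, at 207 to 202 and 178 to 173 bases before the start, and CCAAT on the opposite strand. TATAAA was found in 12.4% of 32851 promoter windows of this length, and among the 7 genes in Aspn and Ogn. These windows leave out a chromosome that holds none of the 9 genes. The Aspn window is 30% G and C, against a median of 52.4%. GGTCANNNTGACC (0.0639% of windows), AGGTCA (14%) and TGANTCA (6.75%) were in none of the 7 windows. A match, or its absence, describes the letters of the window and nothing about what binds there.

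Decorin, the most studied of the family, decorates collagen fibrils and binds growth factors. Dcn (ENSMUSG00000019929, chromosome 10, 97479609 to 97518143, plus strand) had normalized counts of 32211, 107287 and 102207 with vehicle in replicates 1, 2 and 3, and 36399, 115800 and 107933 with E2. With E2 plus fulvestrant the counts were 31792, 76416 and 78273, and with fulvestrant 33671, 70600 and 72947. In replicates 2 and 3 both fulvestrant groups were below both groups without it, while replicate 1 was nearly level. The log2 difference was -0.42 (standard error 0.132, limma adjusted p = 0.0637) with E2 plus fulvestrant against E2 and -0.34 (limma adjusted p = 0.105) with fulvestrant against vehicle, neither past the threshold. The first passed with a block of replicate 1 against replicates 2 and 3 (limma adjusted p = 0.0414), without vehicle replicate 1 (limma adjusted p = 0.0433) and without fulvestrant replicate 1 (limma adjusted p = 0.0273), and the second without fulvestrant replicate 1 (-0.49, limma adjusted p = 0.0224). By replicate number, the second was 0.06, -0.60 and -0.49. Without replicate 1 both passed, at -0.53 (limma adjusted p = 0.00795) and -0.55 (limma adjusted p = 0.00491). With E2 against vehicle it was 0.12 (95% interval -0.17 to 0.41).

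Biglycan is the X-linked relative of decorin and also acts as a signal to innate immune receptors when released. Bgn (ENSMUSG00000031375, chromosome X, 73483602 to 73495933, plus strand) had normalized counts of 99519, 71114 and 70348 with vehicle, 89992, 67291 and 62501 with E2, 68188, 59033 and 59731 with E2 plus fulvestrant, and 64933, 62903 and 61561 with fulvestrant. The fulvestrant samples were all below the vehicle samples, which was also so for other listed genes, such as Sdc2 and Gpc6. The log2 difference of Bgn, -0.33 (standard error 0.114, limma adjusted p = 0.0759), did not pass the test, and it was -0.18 (limma adjusted p = 0.178) without replicate 1. It passed only where each sample was scaled to the same total. E2 against vehicle gave -0.13 (95% interval -0.38 to 0.12).

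Lumican (Lum), fibromodulin (Fmod) and prolargin (Prelp) form the second class. Lumican limits the lateral growth of collagen fibrils, and its gene is the neighbour of Dcn on chromosome 10, 47 kb away. Lum (ENSMUSG00000036446, 97565128 to 97572703, plus strand) had normalized counts of 1064, 3337 and 3410 with vehicle and 1200, 3942 and 3737 with E2. It had 625, 1312 and 1407 with E2 plus fulvestrant, and 622, 1318 and 1271 with fulvestrant. In each replicate number both fulvestrant samples were below both samples without it, and replicate 1 was the lowest of its group throughout. Fulvestrant against vehicle lowered Lum, with a log2 difference of -1.18 (standard error 0.129, limma adjusted p = 0.000265), which is 2.26-fold lower. With E2 plus fulvestrant against E2 the difference was -1.31 (standard error 0.129, limma adjusted p = 0.00015), which is 2.48-fold lower. By replicate number the second was -0.94, -1.59 and -1.41. Both calls held without each sample and without each replicate number, with differences of -1.38 to -1.06 and -1.50 to -1.17. E2 against vehicle gave 0.18 (95% interval -0.10 to 0.47), with 3 of 3 pairs higher, and E2 plus fulvestrant against fulvestrant 0.05 (-0.23 to 0.33).

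Fibromodulin binds the same collagen region as lumican and is abundant in tendon. Fmod had normalized counts of 18844, 2816 and 2951 with vehicle, 12915, 2653 and 2326 with E2, 9807, 2173 and 2147 with E2 plus fulvestrant, and 9940, 2451 and 2463 with fulvestrant. Vehicle was the highest of the 4 groups in every replicate number, with the widest gap in replicate 1. Fulvestrant against vehicle gave a log2 difference of -0.46 (standard error 0.117, limma adjusted p = 0.0225), with 3 of 3 pairs lower, at -0.92, -0.20 and -0.26. The call was lost without replicate 1, at -0.23, without replicate 2, at -0.59, and without replicate 3, at -0.56, and also without vehicle replicate 1 or fulvestrant replicate 1, with a 2-group fit and with no variance trend. In replicate 1 the summed tendon markers were 14154 with vehicle, 14272 with E2 and 9810 with fulvestrant, and their part in the Fmod differences was not tested. E2 against vehicle gave -0.32 (limma adjusted p = 0.468) and E2 plus fulvestrant against E2 -0.27 (limma adjusted p = 0.167), which passed without vehicle replicate 1 (limma adjusted p = 0.0436).

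The Fmod gene (ENSMUSG00000041559) lies on chromosome 1, 134037254 to 134048277, plus strand, and the promoter window at chr1:134037004-134037253 holds none of the 6 motifs.
Fmod: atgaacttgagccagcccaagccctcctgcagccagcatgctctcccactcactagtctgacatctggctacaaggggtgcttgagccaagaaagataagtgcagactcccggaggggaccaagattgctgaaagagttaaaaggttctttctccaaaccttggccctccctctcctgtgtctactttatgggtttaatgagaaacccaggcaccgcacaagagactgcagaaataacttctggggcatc
Its G and C content was 51.2%, near the median of the windows searched.

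Prolargin anchors basement membranes to the connective tissue beneath and binds heparan sulfate. Prelp (ENSMUSG00000041577, chromosome 1, 133910304 to 133921414, minus strand) had normalized counts of 80803, 33914 and 35318 with vehicle, 72570, 33631 and 30870 with E2, 87736, 34255 and 33847 with E2 plus fulvestrant, and 91617, 34564 and 32525 with fulvestrant. Replicate 1 was far above the others, and within a replicate number the treatments lay close together. The log2 differences were -0.12 (95% interval -0.31 to 0.07) with E2, 0.03 (-0.16 to 0.22) with fulvestrant and 0.14 (-0.05 to 0.34) with E2 plus fulvestrant against E2. The last of the small members, osteoglycin or mimecan (Ogn), belongs to another class and helps to regulate fibril diameter. Ogn (ENSMUSG00000021390, chromosome 13, 49608046 to 49624501, plus strand) had normalized counts of 103207, 26651 and 26276 with vehicle, 147175, 34940 and 33645 with E2, 124028, 28552 and 28697 with E2 plus fulvestrant, and 130985, 25116 and 24981 with fulvestrant. The E2 sample was the highest in every replicate number. E2 against vehicle gave 0.42 (95% interval 0.21 to 0.63), with 3 of 3 pairs higher by 0.36 to 0.51, but the limma adjusted p over all genes was 0.25 and it was 0.0514 without replicate 1. E2 plus fulvestrant against E2 gave -0.26 (limma adjusted p = 0.107), which passed with quantile normalization (-0.32, limma adjusted p = 0.0249), and fulvestrant against vehicle 0.06 (limma adjusted p = 0.707).

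Versican holds water and hyaluronan in loose and healing matrix and is cleaved by ADAMTS proteases. Vcan had normalized counts of 865, 2251 and 2819 with vehicle and 1065, 3459 and 2897 with E2. It had 2958, 4409 and 4067 with E2 plus fulvestrant, and 2205, 5147 and 4737 with fulvestrant. Within every replicate number both fulvestrant samples were above both samples without it. Fulvestrant against vehicle raised Vcan by 1.10 on the log2 scale (standard error 0.193, limma adjusted p = 0.00386), a fold of 2.14. The difference was 0.97 without replicate 1 (limma adjusted p = 0.000211), and the call was lost without replicate 2, at 1.05. E2 plus fulvestrant against E2 gave 0.77 (standard error 0.193, limma adjusted p = 0.0265), with a wide spread over replicate numbers, at 1.47, 0.35 and 0.49. That call was lost with a 2-group fit (limma adjusted p = 0.058) and without E2 plus fulvestrant replicate 1 (0.47, limma adjusted p = 0.0688) or E2 replicate 1 (0.61, limma adjusted p = 0.095), and held without replicate 1 in all groups (0.42, limma adjusted p = 0.0301). It was also lost without E2 replicate 3, without replicate 2, without replicate 3 and with no variance trend. E2 against vehicle gave 0.32 (95% interval -0.11 to 0.75).

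The Vcan gene (ENSMUSG00000021614) lies on chromosome 13, 89655312 to 89742509, minus strand, and its promoter window is at chr13:89742513-89742762.
Vcan: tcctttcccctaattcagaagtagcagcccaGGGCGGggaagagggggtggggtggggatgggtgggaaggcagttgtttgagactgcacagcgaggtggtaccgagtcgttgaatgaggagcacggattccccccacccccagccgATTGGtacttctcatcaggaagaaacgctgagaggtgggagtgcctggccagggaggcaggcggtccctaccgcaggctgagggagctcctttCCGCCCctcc
It holds GGGCGG on both strands, the nearer one 10 to 5 bases before the start, and CCAAT on the opposite strand, and 62.4% of it is G and C. GGGCGG was in 32.7% of the windows searched and CCAAT in 33.8%. Among the 7 genes GGGCGG was in Bgn, Hspg2 and Vcan, and CCAAT in Aspn, Prelp and Vcan. Aspn and Vcan, called higher with fulvestrant in both comparisons, thus had windows of very different base content.

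Perlecan binds growth factors through its heparan sulfate chains. Hspg2 (ENSMUSG00000028763, chromosome 4, 137468769 to 137570630, plus strand) had normalized counts of 24557, 19554 and 22557 with vehicle, 25336, 31309 and 24066 with E2, 27115, 22684 and 20528 with E2 plus fulvestrant, and 29471, 21660 and 21071 with fulvestrant. E2 replicate 2 was the highest of all 12 samples, and the rest overlapped. E2 against vehicle gave 0.27 (95% interval -0.01 to 0.55), with a pair difference of 0.68 in replicate 2 against 0.05 and 0.09 in replicates 1 and 3. Fulvestrant gave 0.10 (-0.18 to 0.38) without E2 and -0.20 (-0.48 to 0.08) with it.

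**Figure D4:**
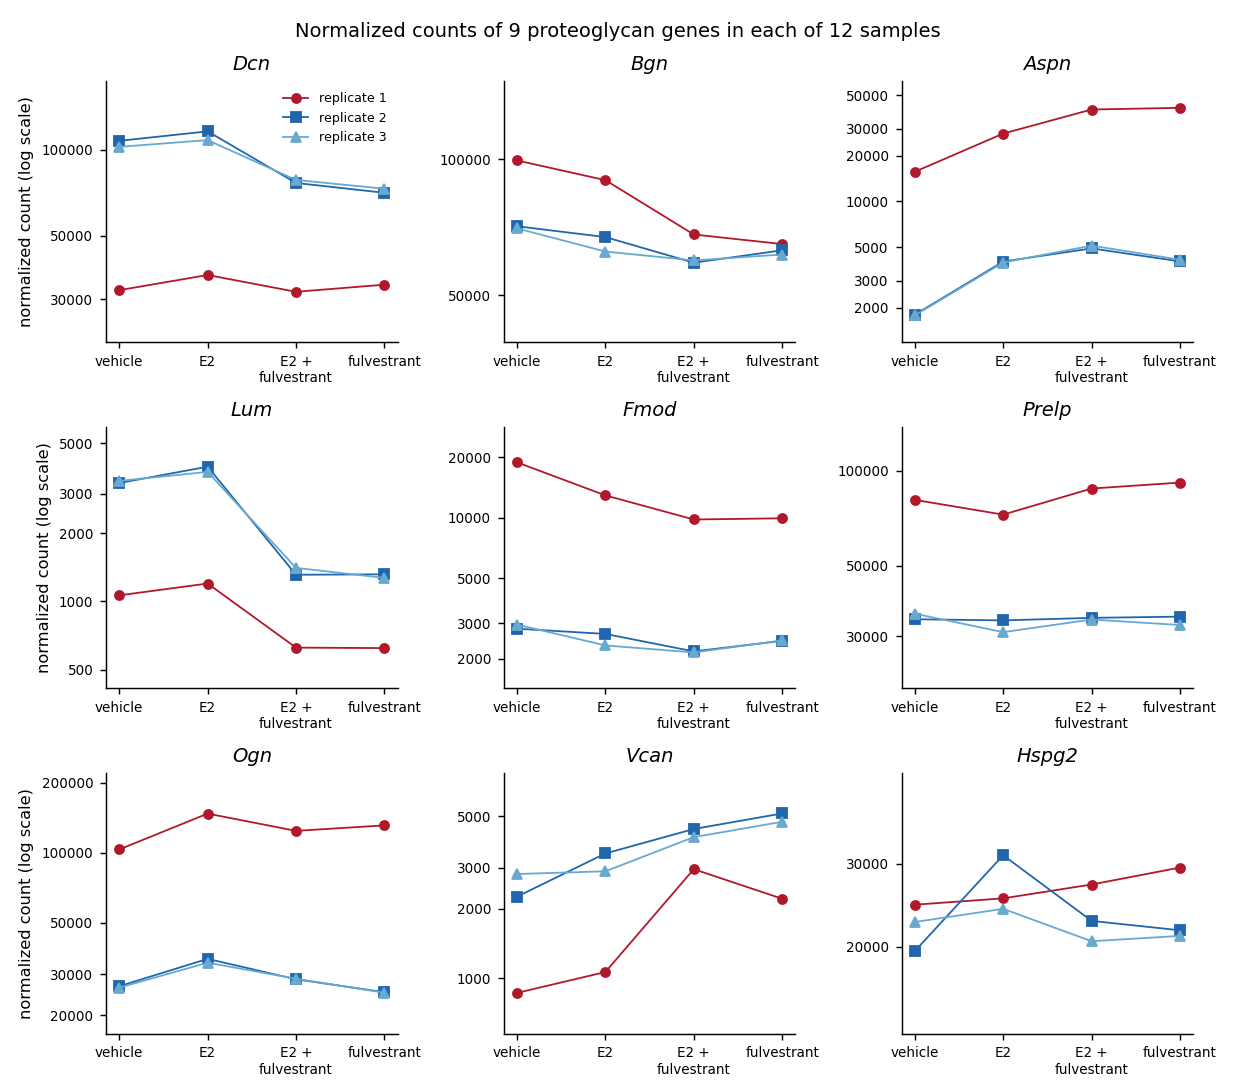
Normalized counts (log scale, vertical axis) of the 9 genes in the 4 groups, with 1 line for each replicate number. Replicate 1 lies apart for 7 of the 9 genes, Lum drops and Vcan is higher in the fulvestrant groups in all 3 lines, and Aspn is lowest with vehicle in all 3.

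Members that lie next to each other on a chromosome did not all change together. On chromosome 13, Aspn and Ogn are separated by osteomodulin (Omd), 14.9 kb after Aspn and 15.2 kb before Ogn, with Ecm2 11.7 kb before Aspn. Omd, a small keratan sulfate protein of bone, had normalized counts of 808, 227 and 208 with vehicle and 1432, 340 and 295 with E2, a log2 difference of 0.64 (limma adjusted p = 0.32). With fulvestrant against vehicle the difference was 1.26 for Aspn, 0.06 for Omd, 0.06 for Ogn and -0.68 for Ecm2 (limma adjusted p = 0.0853). By replicate number the pairs were 0.69, -0.34 and -0.17 for Omd and 0.34, -0.09 and -0.07 for Ogn. Both thus rose with Aspn in replicate 1 only. The Ecm2 pairs were -0.25, -0.32 and -1.48, so its value rested largely on replicate 3. On chromosome 10, Dcn and Lum both had negative fulvestrant differences, of which those of Lum passed the test. On chromosome 1, Prelp and Fmod lie 115.8 kb apart, with opticin (Optc) 2.3 kb from Prelp. Optc was called lower with E2 plus fulvestrant against E2 (-0.76, limma adjusted p = 0.0231), its normalized counts being 149.9, 58.0 and 77.2 with E2 and 71.9, 44.0 and 42.3 with E2 plus fulvestrant.

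Once each replicate number's mean was removed, some of the 9 genes had like patterns over the 12 samples, which share libraries and treatments. Pearson's r was 0.93 for Dcn and Lum, 0.94 for Bgn and Fmod, and 0.79 for Aspn and Vcan, whereas it was -0.89 for Bgn and Vcan, -0.86 for Fmod and Aspn, and -0.77 for Lum and Vcan. Of all genes, the patterns most like Lum over the 12 samples were those of Piezo2 (r = 0.992), a mechanosensitive ion channel, Islr (0.984) and Ptchd1 (0.984). For Vcan they were Nav3 (0.990), Cd80 (0.988) and Camk1d (0.980). For Aspn they were Enah (0.959), an actin regulator, Acot9 (0.952) and Slain2 (0.949). For Fmod they were Myo7a (0.966), Limch1 (0.965) and Enpp1 (0.960). These are the highest values among all genes, and how high r runs among other genes called with fulvestrant was not examined.

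Other proteoglycan genes were listed by role. Of the other small leucine-rich genes 5 were measured, and Podn (podocan) was called lower with fulvestrant against vehicle (-0.47, limma adjusted p = 0.00933), Optc being the one called with E2 plus fulvestrant against E2. The median log2 difference of the 5 was -0.26 without E2 and -0.33 with it. Of 3 other secreted or basement membrane proteoglycans, agrin (Agrn) was called lower in both fulvestrant comparisons (-0.28 without E2 and -0.32 with it). For both lists that is 1 gene lower in each comparison, against 5.69% of all genes without E2 and 4.62% with it. Of 10 cell-surface proteoglycans, syndecan 2 (Sdc2; -0.48 and -0.48) and glypican 6 (Gpc6; -0.76 and -0.46) were called lower in both (2 of 10, against 5.69% and 4.62% of all genes), and 0 were called higher, against 6.76% and 4.97%. With E2 against vehicle limma called 0 of these 18 genes, against 0.0756% of all genes, so this count is at the background.

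Hyaluronan, the chain that versican binds, is made by hyaluronan synthases and bound at the cell surface by CD44. Of 7 genes measured in this list, Has2 (0.58 without E2 and 0.54 with it) and Cd44 (0.60 and 0.58) were called higher in both fulvestrant comparisons. Cemip, which degrades hyaluronan, was called lower in both (-1.38 and -0.91). These are 2 of 7 higher, against 6.76% of all genes without E2 and 4.97% with it, and 1 of 7 lower, against 5.69% and 4.62%. Cd44 had 5716 ± 69.0 normalized counts with vehicle and 8766 ± 1757 with fulvestrant (SD, n = 3). Its E2 level was 5568 ± 277 and its level with E2 plus fulvestrant 8345 ± 204, with no overlap in either comparison.

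Of 19 genes for the chain linkage and for chondroitin or dermatan sulfate, Ust, which sulfates the uronic acid, was called higher in both fulvestrant comparisons (0.40 and 0.30). Without E2, the sulfotransferase Chst7 was called higher (0.59) and Csgalnact1, which starts the chondroitin chain, lower (-0.62). The counts of 2 higher and 1 lower of 19 without E2, and 1 higher and 0 lower with it, are near the shares of all genes (6.76% and 5.69% without E2, 4.97% and 4.62% with it). Of 21 genes for heparan or keratan sulfate, Hs6st2 (-0.78 and -0.56) and Chst2 (-0.65 and -0.58), both sulfotransferases, were called lower in both. Without E2, Hs6st1 (-0.58) and Hs3st3a1 (-0.51) were called lower and the epimerase Glce (0.30) higher. That is 4 of 21 lower and 1 higher without E2, against 5.69% and 6.76% of all genes, and 2 lower and 0 higher with it, against 4.62% and 4.97%. Of 6 genes that supply sulfate, Papss2, which makes the sulfate donor, was called higher in both (0.59 and 0.59), 1 of 6 against 6.76% and 4.97% of all genes. Some of these differences were smaller without replicate 1. Fulvestrant against vehicle then gave -0.28 for Csgalnact1, which stayed called (limma adjusted p = 0.00921). With all samples its pair differences were -1.30, -0.23 and -0.33 and its limma adjusted p was 0.0495. Without replicate 1, Hs6st1 (-0.28, limma adjusted p = 0.0174) and Chst2 (-0.38, limma adjusted p = 0.00625) also stayed called, and Ust, at 0.26, fell under the fold threshold. The calls of Csgalnact1 (-0.34) and Hs6st1 (-0.36) were lost without fulvestrant replicate 1. Of the 15 fits that left out a sample or a replicate number, 12 lost the call of Csgalnact1 and 12 that of Chst7 (0.48 to 0.68). The call of Glce was lost in 4, with differences down to 0.25, under the fold threshold. With E2 against vehicle limma called 0 of these 46 genes, also at the background of 0.0756%.

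Of 9 genes for proteases that cleave proteoglycans and their helpers, Adamts4, an aggrecanase that also cuts versican, was called lower in both fulvestrant comparisons (-0.92 and -1.13). Its level was 179 ± 7.51 normalized counts with vehicle and 95.6 ± 24.7 with fulvestrant (SD, n = 3). Adamts9 was called lower without E2 (-0.997), and Pcolce, which enhances procollagen cleavage and is no protease, lower with it (-0.34). In each comparison 2 of 9 were thus lower, against 5.69% and 4.62% of all genes. Without replicate 1 in any group the difference of Adamts9 was -0.42 and stayed called (limma adjusted p = 0.0131). Its call was lost without vehicle replicate 1 (-0.64) or fulvestrant replicate 1 (-0.59). With E2 against vehicle limma called 0 of these 9 genes and 0 of the 7 for hyaluronan, against 0.0756% of all genes. For each of these lists the median log2 difference lay between -0.08 and 0.06 in both fulvestrant comparisons, apart from the small leucine-rich genes above and the secreted and basement membrane group with E2 (-0.23), beside 0.01 for all genes. These medians describe the lists and are not tests.

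**Figure D5:**
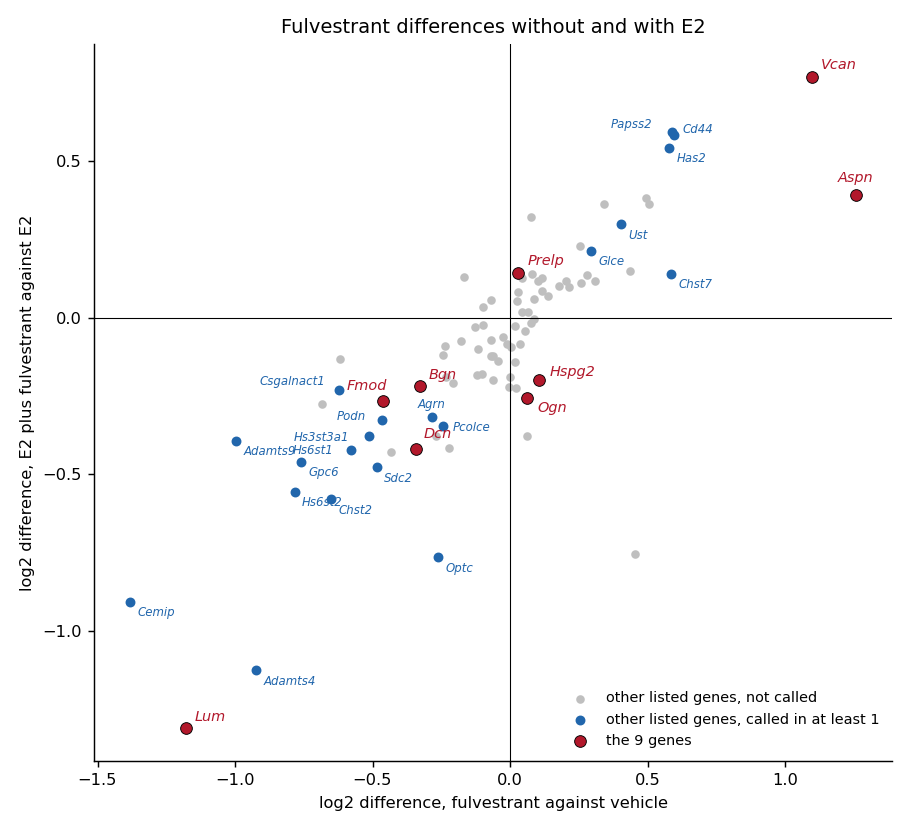
Log2 difference of fulvestrant against vehicle (horizontal axis) and of E2 plus fulvestrant against E2 (vertical axis), with the 9 genes in red. Other listed genes, for proteoglycans, hyaluronan, sugar chains, sulfate supply and proteases, are blue if called in at least 1 of the comparisons and grey if in neither. Vcan and Aspn lie at the upper right with Cd44, Has2 and Papss2, and Lum at the lower left with Cemip and Adamts4.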

How the data were processed

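HAFs of Aromhum mice were sequenced in 12 samples from 4 groups of 3, with groups and replicate numbers from the sample labels. The authors trimmed the reads (Trimmomatic 0.39), removed ribosomal ones, aligned to mm10 (STAR 2.5.2), counted by strand (HTSeq 0.13.5), dropped counts under 10 and normalized by the median of ratios (DESeq2 1.37). The authors also describe reducing batch effects with ComBat_seq and removeBatchEffect, without naming the batches, and whether the deposited values come before or after that step is not given in the sources used here. The deposited signal per gene is a normalized count. All values were whole multiples of 1 step per sample (tolerance 0.01), taken here as the value of 1 read. No treatment was compared on read counts, and read numbers are inferred and rest on that step, which an automated check starting from the smallest value did not accept. The inferred reads on listed genes had a median of 31703872 per sample.

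Symbols and positions came from GENCODE M21 (13149 of 13233 identifiers), promoters from RefSeq. No exon of the 9 genes overlaps another gene's exon on its strand. For each gene, limma 3.58.1 (R 4.3.3, eBayes with a variance trend) fitted log2(value + 1) of all 12 samples, with the group and the replicate number as terms, p-values were adjusted over all genes, and the fit was tested on simulated data. The pairing rests on the replicate numbers in the labels, and the 18 same-numbered pairs had correlated deviations from their group means (r = 0.631 to 0.923). This came from replicate 1 against the rest, since replicate 2 of one group with replicate 3 of another gave 0.632 to 0.792. A replicate 2 or 3 sample was closer to its own number in 9 of 24 cases, so the data do not support pairing 2 with 2 and 3 with 3. Replicates 2 and 3 of a group differed beyond the counting noise of the inferred reads (chi-square per degree of freedom 4.30 to 23.5). Python 3.11.15, pandas 2.3.3, numpy 2.4.6 and matplotlib 3.10.9 were used.

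The genes named were the 9 genes, the called genes of each list (at most 5 in each direction), the 3 genes of most like pattern for each called member, and Esr1 and Pgr. The members and lists were chosen with earlier results of these data known. Alternatives were the pseudocount, a filter on a mean of 100, the block, 2-group fits, the variance trend, scaling, adjusted p alone, and samples or replicate numbers left out.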

Additional observations from a re-analysis of the deposited data

How the results depend on the processing

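The calls rest on the replicate block and on 3 samples a group. Of 36 calls among the other listed genes, 34 were lost without the block, 25 without replicate 2, 25 without replicate 3 and 4 without replicate 1. Of these 36, 8 held whichever samples or replicate number were left out (Esr1, Gpc6 and Papss2 in both fulvestrant comparisons, Hs6st2 in fulvestrant against vehicle and Pgr in E2 plus fulvestrant against E2). Planned count tests (edgeR, DESeq2) were not run, since the reads were only inferred. Pseudocounts and a filter on a mean of 100 changed no call among the 9 genes. The cause of the changes below was not tested, apart from the fewer samples used.

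With no replicate block, the genes called were 1 for E2 against vehicle (10 with the block), 69 for E2 plus fulvestrant against E2 (1270) and 72 for fulvestrant against vehicle (1648), and 0 of the 9 genes in each (1, 3 and 4). With 2 groups and no block they were 0, 8 and 0, and 0 of the 9 genes in each. With 2 groups and the block they were 57 for E2 against vehicle and 692 for fulvestrant against vehicle. For E2 against vehicle, 3 genes were called with no variance trend and 17 with a block of replicate 1 against replicates 2 and 3. Reversed differences were, for fulvestrant against vehicle, Ogn at -0.07 (quantile normalization) and Prelp at -0.01 (same total), and, for E2 plus fulvestrant against fulvestrant, Bgn at 0.06 (quantile normalization).

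Leaving out samples or replicate numbers gave 0 to 59 genes and 0 to 1 of the 9 called for E2 against vehicle, 316 to 1611 and 1 to 5 for E2 plus fulvestrant against E2, 399 to 2312 and 2 to 4 for fulvestrant against vehicle, 0 to 4 genes for E2 plus fulvestrant against fulvestrant, and 0 to 11 and 0 to 1 for the interaction. Differences that changed sign were, for E2 against vehicle, Dcn (-0.0015 to 0.21), and for fulvestrant against vehicle Ogn (-0.08 to 0.14), Prelp (-0.05 to 0.10) and Hspg2 (-0.0017 to 0.21). For E2 plus fulvestrant against fulvestrant they were Dcn (-0.05 to 0.19), Lum (-0.07 to 0.19), Bgn (-0.13 to 0.03), Prelp (-0.05 to 0.06), Vcan (-0.31 to 0.17) and Hspg2 (-0.10 to 0.08), and for the interaction Dcn (-0.17 to 0.07) and Lum (-0.27 to 0.01). None of these was called.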
